A study of Mus musculus with 6 samples.

Results

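Mast cell transcripts, represented by 10 genes, were followed in the deposited table of 25339 genes measured in mouse colon: the chymase genes Mcpt1, Mcpt2, Mcpt4, Mcpt9, Cma1 and Cma2, the carboxypeptidase gene Cpa3, the tryptase gene Tpsb2, and Fcer1a and Ms4a2, which encode the α and β chains of the high-affinity IgE receptor. They were picked by symbol as genes of mucosal and connective tissue mast cells, with their difference between the treatment groups already known, and all 10 were in the table. Their levels are therefore given as a description with no test. The 2 groups were colon from mice that received DMSO, a solvent, and colon from mice that received lenvatinib, a kinase inhibitor known as an oral cancer drug that blocks VEGF receptors and, among further receptor kinases, KIT, with 3 libraries per group. The sources used here give no strain, age, sex, genotype, dose, duration or induction of colitis for either group.

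Mast cells mature in tissues from circulating progenitors and need KIT signalling, driven by KIT ligand, to survive. Their granules hold large amounts of serine proteases, tryptases and chymases, and of carboxypeptidase, bound to proteoglycan, and are released when antigen crosslinks IgE on the surface receptor. In the mouse gut, mucosal mast cells lie in the epithelium and lamina propria and are marked by Mcpt1 and Mcpt2, whereas connective tissue mast cells lie in submucosa and muscle and carry Mcpt4, Cma1, Tpsb2 and Cpa3. The transcription factor GATA2 is required for the lineage.

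Since the members differed together between the groups, the sequences before the starts of Mcpt1, the most abundant member, Mcpt4, its relative of the connective tissue type, Cpa3 and Fcer1a are shown. They were taken from RefSeq on build GRCm38.p6, which is not the build named for the deposited values (GRCm39). The 250 bases upstream of the annotated start are written 5′ to 3′ on the strand of the gene, and capitals mark matches to the GATA motif, searched as AGATAA, then as TGATAA, then as AGATAG and then as TGATAG on both strands.
Mcpt1 (chr14:56017714-56017963, plus strand): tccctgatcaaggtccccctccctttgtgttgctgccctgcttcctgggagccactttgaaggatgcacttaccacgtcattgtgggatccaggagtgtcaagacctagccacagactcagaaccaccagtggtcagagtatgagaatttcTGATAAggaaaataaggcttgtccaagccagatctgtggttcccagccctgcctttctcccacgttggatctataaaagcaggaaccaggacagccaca
Mcpt4 (chr14:56062311-56062560, minus strand): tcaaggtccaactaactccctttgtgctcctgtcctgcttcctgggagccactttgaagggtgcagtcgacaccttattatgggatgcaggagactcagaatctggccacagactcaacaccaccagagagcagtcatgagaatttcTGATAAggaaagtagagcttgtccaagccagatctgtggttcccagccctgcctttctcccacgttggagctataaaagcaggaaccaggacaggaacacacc
Cpa3 (chr3:20242182-20242431, minus strand): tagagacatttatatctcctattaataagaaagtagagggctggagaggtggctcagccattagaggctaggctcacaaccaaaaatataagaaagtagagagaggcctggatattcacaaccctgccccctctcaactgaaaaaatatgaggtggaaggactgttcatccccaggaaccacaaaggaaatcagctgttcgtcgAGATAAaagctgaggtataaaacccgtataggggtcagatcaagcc
Fcer1a (chr1:173227230-173227479, minus strand): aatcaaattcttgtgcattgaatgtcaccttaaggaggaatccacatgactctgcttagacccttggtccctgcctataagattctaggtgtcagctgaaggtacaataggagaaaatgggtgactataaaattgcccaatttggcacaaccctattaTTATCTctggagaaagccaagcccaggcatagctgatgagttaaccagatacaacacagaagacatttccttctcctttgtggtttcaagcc
A promoter was listed for 7 of the 10 members (Mcpt1, Mcpt4, Mcpt9, Cma1, Cpa3, Fcer1a and Ms4a2). A GATA match was present in 6 of these 7 upstream windows, all but that of Mcpt9, and in 26.5% of all 32851 promoter windows of the same length. The Mcpt1 match lay 99 to 94 bases and the Mcpt4 match 103 to 98 bases before the start, and these windows were 86.4% identical over 242 aligned bases. The Cpa3 match lay 46 to 41 bases before its start. Ms4a2 held 3 matches. The motif TGTGGT or TGCGGT, bound by RUNX factors, was found in 4 of the 7 (Mcpt1, Mcpt4, Cpa3 and Fcer1a) and in 18.6% of all windows. The E-box letters CACGTG or CATGTG were found in 1 of the 7, Fcer1a, and in 17.6% of all windows. A match is a run of letters and was not measured as a binding site.

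All levels are FPKM, fragments scaled by gene length and library depth, as deposited. The low values of each gene step in units of a single read, so that read numbers could be recovered for all 23951 genes above 0, and are given beside the levels. Recovered depth ran from 37660528 to 39287783 reads per library. Over 4686 genes above 10 FPKM everywhere, libraries 2 and 3 of each group differed by a median of 0.0369 and 0.0417 on the log2 scale and all other pairs by 0.119 to 0.191. Whether libraries 2 and 3 of a group are independent samples was not tested. DMSO 1 was the only library with Ddx3y, a Y-linked gene (6.54 FPKM), and its Xist was 0.00147 FPKM against 15.9 to 19.8 FPKM. By these genes DMSO 1 had the pattern of male tissue and all other libraries that of female tissue. Sex was thus mixed within the DMSO group and not within the lenvatinib group. Its part in the values of DMSO 1 was not tested. Epithelial markers of the colon, among them Car1 and Cdx2, were present in all libraries, with summed levels of 12739 to 14080.3 FPKM with DMSO and 11827 to 14743 FPKM with lenvatinib.

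The mucosal chymases were the most abundant members and were close to 0 in the lenvatinib libraries. Mcpt1 measured 162, 140.0 and 140.2 FPKM in DMSO libraries 1 to 3 and 0.0254, 0.548 and 0.151 FPKM in lenvatinib libraries 1 to 3. In reads, these were 6342, 5701 and 5614 against 1, 22 and 6. The lowest DMSO library was 255 times the highest lenvatinib library, and the group means were 148 ± 12.9 and 0.241 ± 0.273 FPKM (SD, n = 3). Mcpt2 measured 53.4, 55.5 and 56.2 FPKM in the DMSO libraries and 0.043, 0.126 and 0.17 FPKM in the lenvatinib libraries, the latter from 2, 6 and 8 reads. Lenvatinib 1 held the fewest reads of both genes. Both encode chymase family proteins of mucosal mast cell granules, and together they made up 88.1 to 89.1% of the summed FPKM of the 10 genes in DMSO.

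Cma2 and Mcpt9, chymase genes of the same family, followed the same pattern at lower levels. Cma2 measured 14.8, 9.25 and 8.2 FPKM with DMSO and 0, 0 and 0.0235 FPKM with lenvatinib, where 1 read remained in all. Mcpt9 measured 3.59, 3.09 and 2.67 FPKM with DMSO and 0, 0.0128 and 0.0129 FPKM with lenvatinib. Both were highest in DMSO 1 and neither had a read in lenvatinib 1.

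The proteases of the connective tissue type were lower as well. Mcpt4, a chymase, measured 2.07, 4.08 and 4.87 FPKM in DMSO libraries 1 to 3 and 0, 0.0259 and 0.0521 FPKM in lenvatinib libraries 1 to 3. Cpa3, the mast cell carboxypeptidase, measured 3.86, 4.75 and 3.73 FPKM and 0.0353, 0.0864 and 0.0349 FPKM, respectively. Cma1, a chymase with the least abundant transcript of the 10, measured 0.386, 0.463 and 0.518 FPKM with DMSO and 0.0479, 0.0235 and 0.0474 FPKM with lenvatinib. These Cma1 levels rested on 58 reads in the 3 DMSO libraries and 5 in the 3 lenvatinib libraries. Tpsb2, a tryptase, measured 0.938, 0.527 and 0.826 FPKM against 0.0227, 0.134 and 0.0224 FPKM, and its lowest DMSO library was 3.94 times its highest lenvatinib library, the narrowest gap of the 8 members with lenvatinib reads.

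The IgE receptor chains were listed at 0 in every lenvatinib library. Fcer1a, whose α chain binds IgE, measured 2.71, 1.81 and 2.84 FPKM with DMSO. These correspond to 106, 74 and 114 reads if the gene has the annotated length; the smallest whole numbers that fit the values were lower by a shared factor of 2. Ms4a2, whose β chain amplifies the receptor's signal, measured 0.774, 0.454 and 0.311 FPKM with DMSO, from 85, 52 and 35 reads. With 0 reads in 3 libraries, a floor of 3 reads over the group gave a level at least 48.8-fold lower for Fcer1a, from its smallest whole numbers (147 reads in all), and at least 57.1-fold lower for Ms4a2. With the reads of the annotated length, the Fcer1a value would be 97.6.

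**Figure D1:**
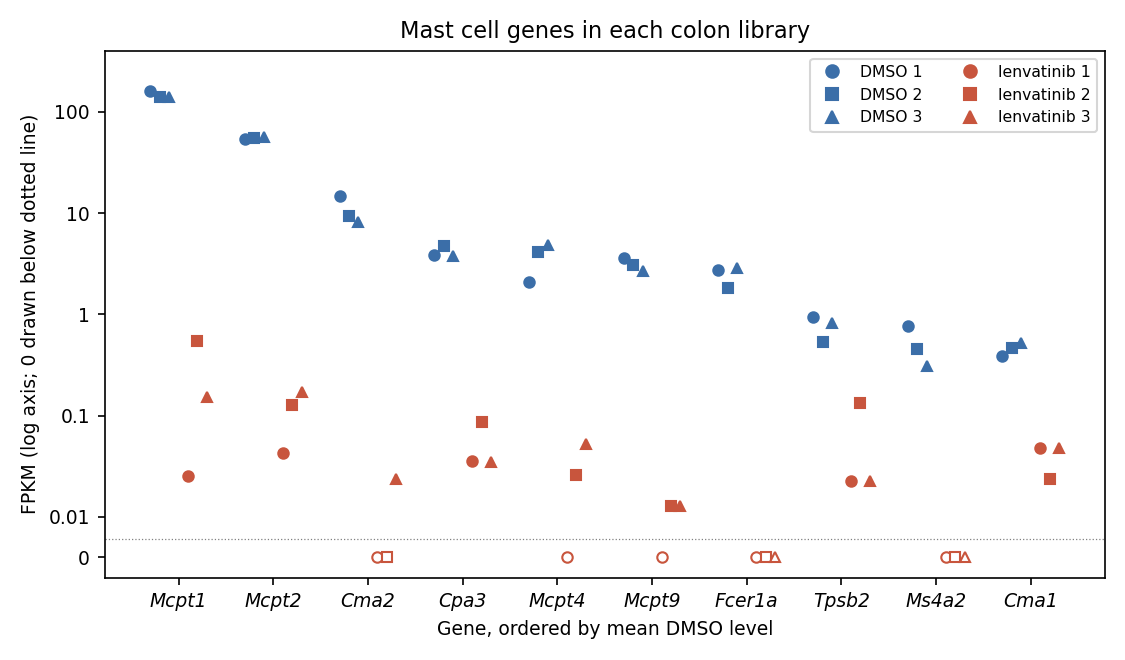
FPKM of each of the 10 mast cell genes (horizontal axis, ordered by mean DMSO level) in each library, on a log axis, with values of 0 as open symbols below the dotted line. All DMSO libraries lie above all lenvatinib libraries for every gene, from Mcpt1 at 140.0 to 162 FPKM with DMSO down to Cma1 at 0.386 to 0.518 FPKM.

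For all 10 genes, every lenvatinib library was below every DMSO library, which held for 11.6% of the 23951 genes above 0 in at least 1 library. The members were chosen for this contrast, so nothing is read from that count. Only 7 of the 10 had a mean of at least 1 FPKM, the filter used for the test of other genes below; Cma1, Tpsb2 and Ms4a2 were under it. On the log2(FPKM + 1) scale, the lenvatinib mean minus the DMSO mean was −6.92 for Mcpt1, −5.66 for Mcpt2, −3.5 for Cma2, −2.28 for Cpa3, −2.14 for Mcpt4, −2.02 for Mcpt9 and −1.77 for Fcer1a. Those of Tpsb2, Ms4a2 and Cma1 were −0.73, −0.59 and −0.48, and on this scale the change of such low genes is understated. Without DMSO 1, the library that stood apart by Ddx3y and Xist, the ratio of mean FPKM went from 611 to 580.5 for Mcpt1, from 487 to 494 for Mcpt2 and from 78.8 to 81.3 for Cpa3. Without lenvatinib 1, these ratios were 422, 372 and 67.8, and libraries 1 alone gave 6391, 1244 and 109, with 1 Mcpt1 read and 2 reads each of Mcpt2 and Cpa3 in lenvatinib 1. In bulk tissue, fewer mast cells and less of these RNAs per cell cannot be told apart.

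The ratio between the groups ranged widely among the members. By reads summed over each group and divided by depth, DMSO exceeded lenvatinib 606-fold for Mcpt1 (95% exact interval 422 to 905) and 486-fold for Mcpt2 (299 to 850.2). Without lenvatinib 2, the Mcpt1 ratio was 1666, and with each library left out in turn it ranged from 421 to 1666 for Mcpt1 and from 372 to 647 for Mcpt2. The ratio was 78.7 for Cpa3 (41.2 to 173), 12.7 for Tpsb2 (6.2 to 30.2) and 11.5 for Cma1 (4.68 to 36.9). Mcpt9, Mcpt4 and Cma2 had 2, 3 and 1 lenvatinib reads, with ratios of 361 (99.7 to 2990), 141 (48.1 to 688) and 1367 (245 to 54033). Without lenvatinib 2, the ratio was 33.7 for Tpsb2, above its interval, and 907 for Cma2. Without lenvatinib 3, it was 283 for Mcpt4, and no Cma2 read was left. These intervals cover counting error only and not the spread between animals, and reads without molecular identifiers are not independent molecules. Taken by type, Mcpt1 and Mcpt2 together had 25463 reads with DMSO and 45 with lenvatinib, a ratio of 563 (421 to 773). Mcpt4, Cma1, Tpsb2 and Cpa3 together had 1297 and 25 reads, a ratio of 51.7 (34.8 to 80.1). With each library left out, the ratio ranged from 405 to 989 for the mucosal pair, the highest without lenvatinib 2, and from 43.3 to 71.4 for the connective tissue type. The 2 counting intervals did not overlap, which describes these libraries and is no test of a difference between the types.

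**Figure D2:**
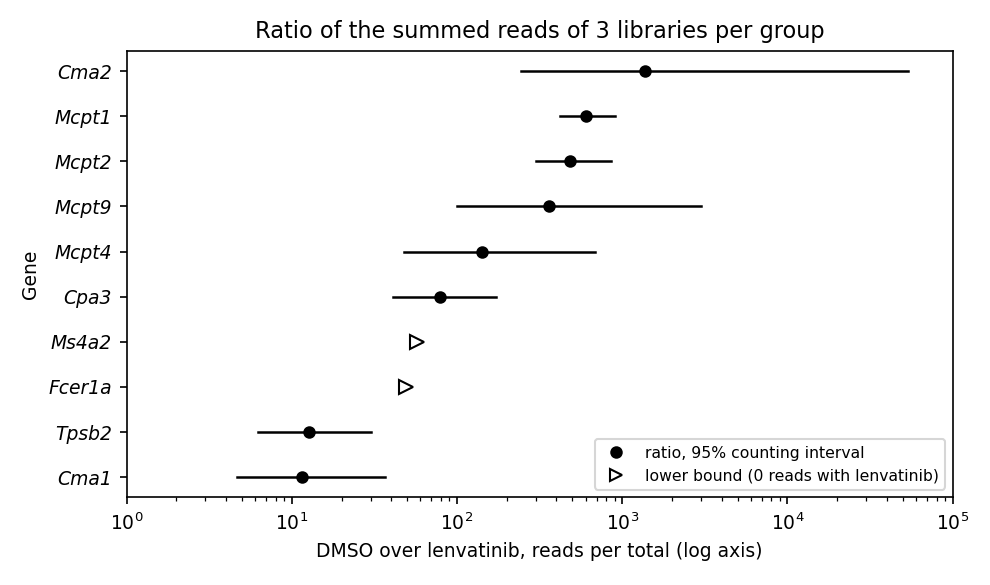
Ratio of DMSO to lenvatinib reads per total for each mast cell gene on a log axis, from the summed reads of 3 libraries per group, with 95% counting intervals as bars and lower bounds as triangles. Mcpt1 and Mcpt2 sit at 606 and 486, and Tpsb2 and Cma1 at 12.7 and 11.5.

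The 10 genes held 10246, 9634 and 9445 reads in DMSO 1 to 3 and 8, 42 and 23 reads in lenvatinib 1 to 3. The connective tissue type proteases made up 2.96, 4.47 and 4.51% of the summed FPKM in DMSO 1 to 3. In lenvatinib 1 to 3 they made up 60.8, 28.2 and 30.5%, from 5, 13 and 7 reads. Lenvatinib 2 held more of the remaining reads than the other 2 libraries, 22 of the 29 Mcpt1 reads and 6 of the 8 Tpsb2 reads among them, although its library was nearly identical to lenvatinib 3 over abundant genes.

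Among the DMSO libraries, the order of levels per length was Mcpt1, Mcpt2 and Cma2 in all 3. Cpa3, Mcpt4, Mcpt9 and Fcer1a, with means of 4.11, 3.68, 3.12 and 2.45 FPKM, changed places between libraries, and each overlapped with its neighbour in that order, whereas Cpa3 lay above Fcer1a in all 3. Tpsb2 ranked eighth in all 3, and Ms4a2 and Cma1 changed places. Mcpt2 varied least, with a coefficient of variation of 2.6% where counting alone gives 1.96%. Cma2 varied by 33.1% where counting gives 4.81%, and Mcpt4 by 39.3% where counting gives 9.02%. They moved in opposite ways: DMSO 1 had the highest Cma2, Mcpt9, Mcpt1, Tpsb2 and Ms4a2 and the lowest Mcpt4. Mcpt4 was 1.28% of Mcpt1 in DMSO 1 and 2.91 and 3.48% in DMSO 2 and 3. The spread of Cma1, 14.5%, was below the 22.9% that its few reads give.

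**Figure D3:**
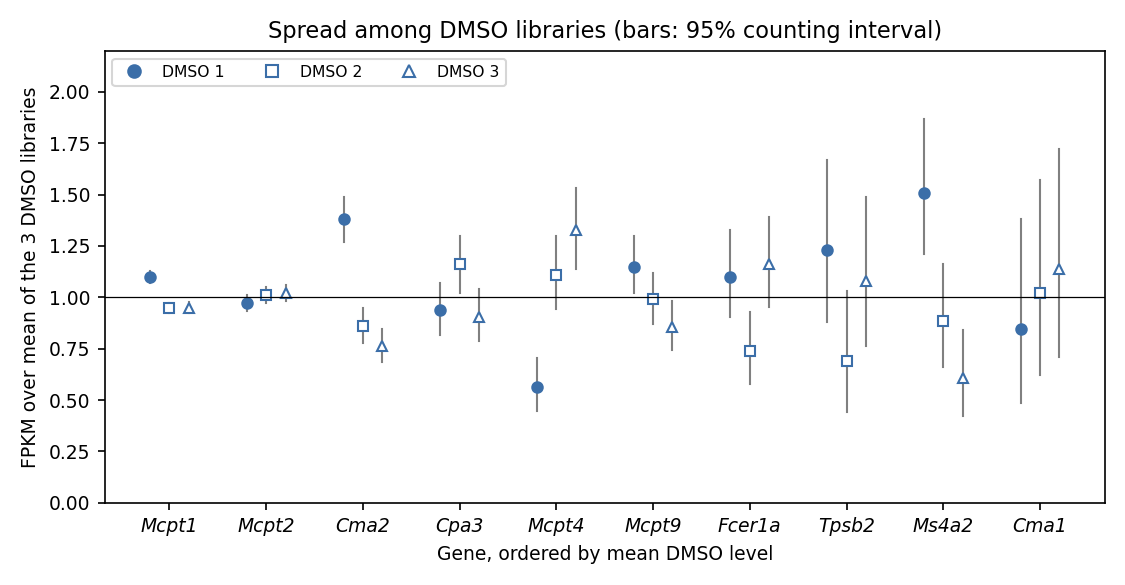
FPKM of each mast cell gene in each DMSO library over the mean of the 3 DMSO libraries, with 95% counting intervals as bars. DMSO 1 (filled) is highest for Cma2, at 1.38, and Ms4a2, at 1.51, and lowest for Mcpt4, at 0.564, while Mcpt2 stays within 0.971 to 1.02.

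The 6 chymase genes lie side by side on chromosome 14 in the order Cma1, Cma2, Mcpt1, Mcpt2, Mcpt9 and Mcpt4, followed by Mcpt8, Ctsg and the granzyme genes up to Gzmb, by the RefSeq annotation of GRCm38.p6. Cpa3, Tpsb2, Fcer1a and Ms4a2 lie on chromosomes 3, 17, 1 and 19. Mcpt1 and Mcpt2 transcripts were 82.2% identical over 961 aligned bases, but none of their 50-base windows occurred in a transcript of another gene in GENCODE M21. Cma2 and Mcpt9 were 98.1% identical over 809 aligned bases. Of the Cma2 windows, 46.5% of those of 50 bases, 23.8% of those of 100 and 8.77% of those of 150 occurred in another gene, and for Mcpt9 these were 18.8, 10.6 and 3.78%. Levels of Cma2 and Mcpt9 are thus uncertain as single genes, since reads could be split between them, and the sources used here give no read length. Mcpt4 shared 5.48% of its windows of 50 bases, with Cma2 and Mcpt9, so its level is also less certain if reads were short. Cma1 shared 5.38% and Ms4a2 2.69% with genes outside the members. No window of 150 bases was shared for Mcpt4, Cma1 or Ms4a2. For Cpa3, Tpsb2 and Fcer1a no window of 50 bases was shared.

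Values of the listed neighbours in the cluster were low or overlapped between the groups. Gzmb, a granzyme of cytotoxic lymphocytes, measured 8.65, 20.8 and 22.2 FPKM with DMSO and 20.6, 1.64 and 1.26 FPKM with lenvatinib, so that lenvatinib 1 lay within the DMSO range (limma adjusted p = 0.292). It was the only 1 of the 4 listed neighbours past the filter (0 of 1 passed, also at an unadjusted p under 0.05), and it passed without lenvatinib 1 (limma adjusted p = 0.00513), as did 38.0% of all genes. Gzmc had means of 0.183 ± 0.0963 and 0.216 ± 0.0872 FPKM (SD, n = 3). Mcpt8, a protease of basophils, measured 0, 0.222 and 0.271 FPKM with DMSO and was listed at 0 with lenvatinib. The smallest whole numbers that fit its DMSO values were 0, 5 and 6 reads, not checked against its length. Prss34 and Cd200r3, further basophil genes, were at 0 or near it in every library. With Il4, the 4 basophil markers summed to 0.334 to 0.493 FPKM with DMSO and 0.0468 to 0.137 FPKM with lenvatinib. Il4 alone measured 0.404, 0.0861 and 0.219 FPKM with DMSO and 0.134, 0.0437 and 0.044 FPKM with lenvatinib. As single genes, 0 of the 4 were lower without overlap. Ctsg had a single DMSO library above 0, at 0.0514 FPKM.

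Genes that mast cells share with other cells were then compared, from lists written from general knowledge. The test was limma on log2(FPKM + 1) with Benjamini-Hochberg adjustment over 11774 genes, of which 2.03% passed at 0.05, 0.934% as lower, and the median difference over all of them was −0.07. The share that passed as higher was 1.10%, and 22.0% of all tested genes had an unadjusted p under 0.05. Of 24 further mast cell genes in the table, 11 were tested, 2 fell, none rose and 9 did not pass, with a median of −0.45 on the log2 scale. Ltc4s, which makes leukotriene C, fell from 4.01, 4.57 and 4.97 FPKM to 1.9, 1.71 and 1.69 FPKM (difference −0.99, SE 0.0898, limma adjusted p = 0.00565). Alox5, the 5-lipoxygenase at the head of leukotriene synthesis, fell from 2.24, 1.4 and 1.7 FPKM to 0.361, 0.42 and 0.54 FPKM (−0.94, SE 0.13, limma adjusted p = 0.0255). The groups of neither gene overlapped. The Ltc4s call was lost in limma without DMSO 2 (adjusted p = 0.0539) and with libraries 2 and 3 as a random pair (0.0884) or averaged (0.3), over a range of 0.00125 to 0.3. The Alox5 call was lost in limma without DMSO 2 (adjusted p = 0.0664), lenvatinib 2 (0.12) or lenvatinib 3 (0.102) and with libraries 2 and 3 as a random pair (0.259) or averaged (0.374), over a range of 0.00654 to 0.374, and it was under the filter without DMSO 1 or DMSO 3. Macrophages also express both genes, and most macrophage markers moved with them: 8 of 10 markers fell. The summed level of the 10 markers was 352 to 399 FPKM with DMSO and 155 to 207 FPKM with lenvatinib. Mertk went the other way without overlap, at 7.97, 7.87 and 8.2 FPKM with DMSO and 8.52, 11.9 and 11.5 FPKM with lenvatinib. Without lenvatinib 1, 8 of the further mast cell genes passed, as did 38.0% of all genes tested there. Dclk1 and Pou2f3, genes of tuft cells, were under the filter and were not tested. Dclk1 measured 1.32, 1.14 and 0.974 FPKM with DMSO and 0.628, 0.749 and 0.675 FPKM with lenvatinib. Pou2f3 measured 0.49, 0.302 and 0.343 FPKM against 0.101, 0.297 and 0.136 FPKM. Both were thus lower without overlap, as were 11.6% of all genes above 0. The part of macrophages, tuft cells or other cells in the Ltc4s and Alox5 difference was not tested.

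Kit, which encodes the receptor that mast cells need for survival and which lenvatinib inhibits, measured 8.04, 7.7 and 8.14 FPKM with DMSO and 6.63, 6.01 and 6.21 FPKM with lenvatinib. Its groups did not overlap, but the difference of −0.3 (SE 0.0645) did not pass (limma adjusted p = 0.083). Interstitial cells of Cajal, the pacemaker cells of the gut, also carry Kit, and their channel gene Ano1 measured 5.87, 3.86 and 3.57 FPKM with DMSO and 5.26, 4.9 and 4.55 FPKM with lenvatinib. Kit passed without lenvatinib 1 (limma adjusted p = 0.00727), over a range of 0.00727 to 0.917. Il1rl1, the IL-33 receptor, measured 2.36 ± 0.655 and 1.52 ± 0.0695 FPKM (limma adjusted p = 0.188). Tpsg1, a further tryptase gene, measured 13.8, 6.78 and 6.92 FPKM with DMSO and 6.8, 5.7 and 5.93 FPKM with lenvatinib (limma adjusted p = 0.33). Srgn, a granule proteoglycan gene, measured 18.8, 19.1 and 19.0 FPKM against 20.3, 6.6 and 6.43 FPKM (limma adjusted p = 0.249). The groups of both Tpsg1 and Srgn overlapped.

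The other 13 genes of the list were under the filter and were not tested. In 5 of these 13 every lenvatinib library was below every DMSO library, against 11.6% of all genes above 0 and 17.5% of genes tested. The share among genes under the filter alone was not computed, so the 5 are not compared with a like set. Gata2 measured 1.08, 0.941 and 0.896 FPKM with DMSO and 0.631, 0.458 and 0.37 FPKM with lenvatinib. Cyp11a1, a steroid synthesis gene that mast cells can express, measured 0.235, 0.137 and 0.237 FPKM against 0.05, 0.00816 and 0.0247 FPKM. Hpgds, the prostaglandin D synthase of haematopoietic cells, had means of 1.38 ± 0.264 and 0.581 ± 0.124 FPKM, and Rgs13, a regulator of G protein signalling, 0.891 ± 0.283 and 0.403 ± 0.0943 FPKM. These 4 and Mitf, a transcription factor gene with means of 0.323 ± 0.0486 and 0.217 ± 0.0117 FPKM, are the 5 without overlap. The other 8 overlapped between the groups. Hdc, the enzyme of histamine synthesis, measured 0.428, 0.238 and 0.204 FPKM with DMSO and 0.789, 0.203 and 0.176 FPKM with lenvatinib, highest in lenvatinib 1. Slc18a2, which loads amines into granules, had means of 0.332 ± 0.0138 and 0.385 ± 0.0862 FPKM, and its groups overlapped. Tpsab1, another mast cell tryptase, was not analysed here.

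IgE receptor signalling genes, most of which other leukocytes express too, did not pass in limma: 0 of 15, with 8 at an unadjusted p under 0.05 (22.0% of all tested genes) and a median of −0.54. Fcer1g, the γ chain that IgE and IgG receptors share, measured 38.3, 51.0 and 49.1 FPKM with DMSO and 33.9, 15.2 and 15.2 FPKM with lenvatinib (limma adjusted p = 0.124). Its lowest lenvatinib library still measured 15.2 FPKM, where Fcer1a and Ms4a2 were listed at 0. The kinase genes Syk and Btk and the phospholipase gene Plcg2 had differences of −0.52, −0.76 and −0.91 (limma adjusted p = 0.0832, 0.107 and 0.124). Without lenvatinib 1, 13 genes of this list passed, against 38.0% of all genes.

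Of the genes for granule secretion, 0 of 10 tested passed in limma, with 4 at an unadjusted p under 0.05 (22.0% of all tested genes) and a median of −0.09. Rab27a and Rab27b, GTPases of granule transport, measured 9.56 ± 2.33 and 5.76 ± 0.792 FPKM, and 3.85 ± 1.02 and 2.27 ± 0.286 FPKM (SD, n = 3; limma adjusted p = 0.121 and 0.136). Stxbp2, a syntaxin-binding protein of exocytosis, measured 30.4 ± 0.658 and 35.3 ± 0.528 FPKM (limma adjusted p = 0.107). Snap23, a fusion protein of granule release, had a difference of −0.16 (limma adjusted p = 0.194). Without lenvatinib 1, 4 genes of this list passed, against 38.0% of all genes.

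Growth, differentiation and homing factors of mast cells did not pass in limma either: 0 of 12 tested, 4 at an unadjusted p under 0.05 (22.0% of all tested genes), median −0.33. Kitl, the ligand of KIT, measured 13.9, 16.4 and 16.3 FPKM with DMSO and 12.4, 9.68 and 10.1 FPKM with lenvatinib, with no overlap of the groups (difference −0.5, SE 0.112, limma adjusted p = 0.0913). Tgfb1, whose protein induces Mcpt1 in mast cells, measured 16.2, 15.6 and 15.5 FPKM against 12.4, 7.57 and 7.77 FPKM (−0.74, SE 0.176, limma adjusted p = 0.103). Il18, an epithelial cytokine, was higher in each lenvatinib library, at 26.9, 61.8 and 62.4 FPKM against 16.4, 20.7 and 20.6 FPKM (limma adjusted p = 0.119). Tgfbr1, a TGF-β receptor, had a difference of −0.35 (limma adjusted p = 0.201). Il33 measured 3.33 ± 0.629 and 3.45 ± 1.22 FPKM (SD, n = 3; limma adjusted p = 0.966). Without lenvatinib 1, 8 genes of this list passed, against 38.0% of all genes.

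Genes that handle histamine and lipid mediators gave 0 of 5 in limma, also 0 at an unadjusted p under 0.05, with a median of −0.05. Aoc1, the diamine oxidase that breaks down histamine in the gut epithelium, measured 41.8 ± 4.36 and 59.4 ± 15.8 FPKM (limma adjusted p = 0.254). F2rl1, the receptor PAR2 that tryptase can cleave, measured 45.1 ± 1.82 and 48.6 ± 4.1 FPKM (limma adjusted p = 0.442). Ptgs2 and Ptgs1, the cyclooxygenase genes, had differences of −0.35 and −0.05 (limma adjusted p = 0.367 and 0.8), and the sign of Ptgs1 turned with 3 other settings. Without lenvatinib 1, 1 gene of this list passed, against 38.0% of all genes.

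**Figure D4:**
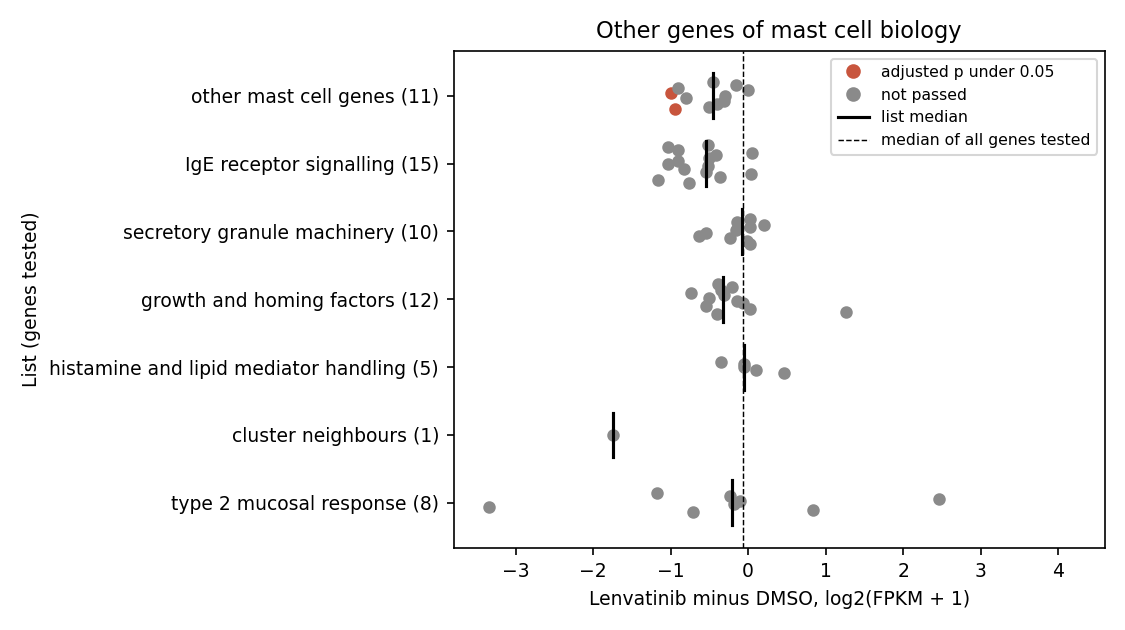
Difference (lenvatinib minus DMSO) in log2(FPKM + 1) for each tested gene of 7 lists (points), with the list median as a black bar and the median of all genes tested, −0.07, as a dashed line. The passing genes are Ltc4s and Alox5, at −0.99 and −0.94, both in the list of other mast cell genes.

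Marker lists of other cell types were summed per library for comparison. The 10 mast cell genes summed to 245, 219.9 and 220.3 FPKM in DMSO and 0.174, 0.956 and 0.514 FPKM in lenvatinib. T and NK cell markers summed to 77.1, 112 and 113 FPKM in DMSO libraries 1 to 3 and 146, 23 and 23.7 FPKM in lenvatinib libraries 1 to 3, so that lenvatinib 1, which had the fewest mast cell reads, had the highest T and NK cell sum. B cell markers summed to 79.5, 63.2 and 67.2 FPKM in DMSO libraries 1 to 3 and 39.3, 7.47 and 8.89 FPKM in lenvatinib libraries 1 to 3. Fibroblast and matrix markers summed to 497 to 525 FPKM with DMSO and 298 to 359.8 FPKM with lenvatinib. Of these, 4 of 6 fell in limma, as did 0.934% of all tested genes. Smooth muscle markers summed to 1381 to 1518 FPKM with DMSO and 1456 to 1769.6 FPKM with lenvatinib. Eosinophil markers, another granulocyte with ties to type 2 responses, summed to 3.04 to 7.16 FPKM with DMSO and 4.15 to 4.99 FPKM with lenvatinib. The sum hides opposite changes. Of the 9 markers, 3 (Siglecf, Il5ra and Alox15) were lower without overlap, as were 11.6% of all genes above 0. Ear2 alone was higher without overlap, at 1.54, 1.2 and 0.645 FPKM with DMSO and 1.68, 2.72 and 3.06 FPKM with lenvatinib. Ear1 and Ear6 were at 0 throughout. Small intestinal markers summed to 428 to 568 FPKM with DMSO and 628 to 925 FPKM with lenvatinib. Of these, 9 of 11 tested rose in limma, as did 1.10% of all tested genes. Fabp2 made up most of the DMSO sums, at 406, 535 and 540.5 FPKM, and measured 302, 479 and 462 FPKM with lenvatinib. The sums thus understate the rise of others. The ileal gene Fabp6 measured 1.44, 2.28 and 2.27 FPKM with DMSO and 161, 159.8 and 148 FPKM with lenvatinib. The B cell, fibroblast and small intestinal sums did not overlap between the groups, whereas the T and NK cell, smooth muscle and eosinophil sums did. The part of these differences in the mast cell result was not tested.

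**Figure D5:**
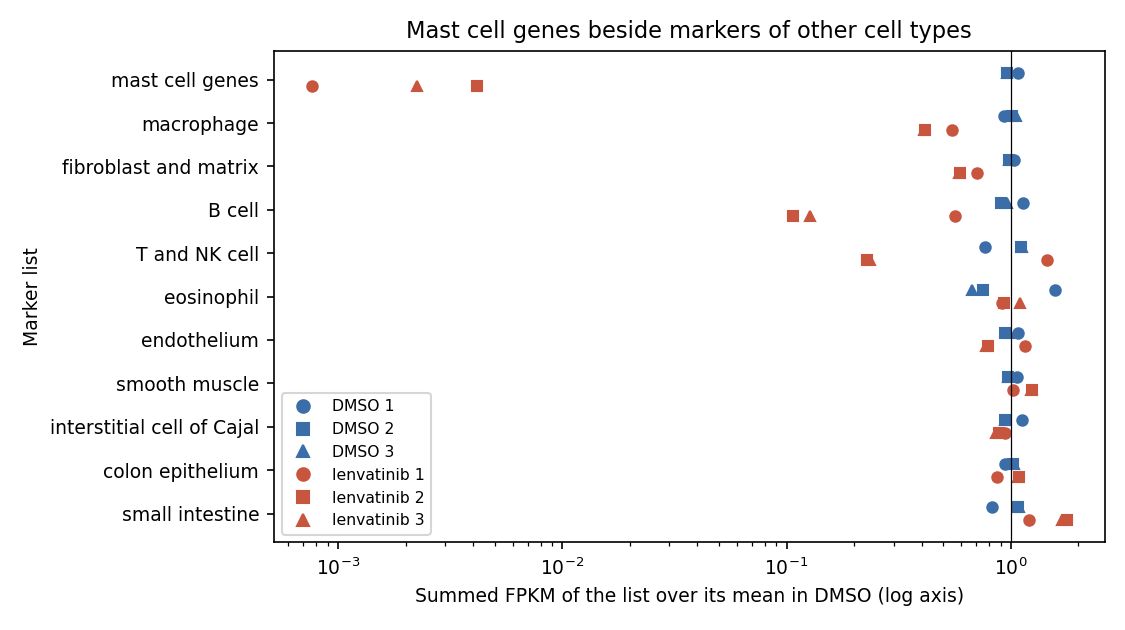
Summed FPKM of each marker list over its mean in the 3 DMSO libraries (log axis), per library. The mast cell genes of the lenvatinib libraries, from 0.174 to 0.956 FPKM in all, lie farthest from their DMSO mean of the 11 lists drawn. They were chosen with this contrast known, so nothing is read from that order. For T and NK cells, lenvatinib 1 lies above the DMSO libraries.

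Over the 6 libraries, the 5 tested genes outside the members with the pattern most like theirs were Col1a1, Col1a2, Col3a1, Ppp3r1 and Col5a2. Likeness was the root mean square difference from the median member after each gene was scaled from 0 to 1 over its own range, and was 0.0282 for Col1a1 and 0.059 for Col5a2 among 11767 genes. Col1a1, a chain of type I collagen, measured 94.2, 86.1 and 88.6 FPKM with DMSO and 38.0, 38.7 and 36.4 FPKM with lenvatinib. The likeness is one of shape only, since Col1a1 differed by a ratio of 2.38 and Ppp3r1, a calcineurin subunit, by 1.07.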

How the data were processed

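Total RNA of colon was sequenced in bulk. The authors deposited FPKM values for 25339 genes in 6 libraries, 3 per group. HTSeq was used and the build was GRCm39, per the submitters' processing notes. Versions, aligner, annotation, strand setting and read length were not given in the sources used here. Titles number biological replicates without tying them to animals, so p-values reflect only library-to-library spread, which may be technical.

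Read numbers were recovered as the smallest whole numbers within 0.01 reads of the deposited values. Those of the 10 members were checked against GENCODE M21 gene lengths. The Fcer1a numbers were then doubled, since only so did the implied length match. Read numbers of other genes were not checked in this way. Other genes were tested with limma 3.58.1 (R 4.3.3), two-sided, on log2(FPKM + 1) with a pseudocount of 1, a trended and robust prior, genes of mean FPKM at least 1, Benjamini-Hochberg adjustment and a threshold of 0.05, after trials on simulated data. Intervals are exact binomial at 95%. The members and lists were chosen with earlier results of these data known. Named list genes are up to 4 per list by unadjusted p, plus genes central to mast cells; further genes, among them those under the filter, were named after their values were seen. Protein sequences were not used here.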

Additional observations from a re-analysis of the deposited data

How the results depend on the processing

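All 10 mast cell genes stayed lower in every lenvatinib library under each pseudocount, both scalings, each library left out and the averaged pairs. Once the groups do not overlap, a pseudocount, a left-out library or an average cannot make them overlap. The members were also chosen for this contrast, so nothing is read from that count. The median difference of the 10 genes, −2.08 on the log2 scale, was −4.82 with a pseudocount of 0.1 and −2.87 with 0.5. It was −2.02 with quantile normalization and −2.13 to −2.02 with each library left out. Of all genes tested, 239 passed, against 140 with no filter, 46 with libraries 2 and 3 as a random pair and 4 with them averaged (both chosen after seeing the data). Leaving out each library gave 44 (without DMSO 3) to 4456 (without lenvatinib 1) genes. With the replicate number as a block 29 passed. Same-numbered libraries deviated with correlations of −0.196, −0.159 and −0.151. In both groups, deviations from the group mean mainly set library 1 against the other libraries. These correlations therefore cannot decide whether the numbers pair the samples.

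The 2 passing genes among other mast cell genes became 1 with no filter (Alox5 adjusted p = 0.0501) and 1 with quantile normalization (0.0719), and 0 with the replicate block, the random pair and the averaged pairs. With each library left out they ranged from 0 (without DMSO 2) to 8 (without lenvatinib 1). The lists with 0 passing genes ranged over the left-out libraries from 0 to 13 for IgE receptor signalling, 0 to 4 for granule secretion, 0 to 8 for growth factors, 0 to 1 for histamine and lipid mediators, 0 to 1 for cluster neighbours and 0 to 3 for the type 2 response. The highest were without lenvatinib 1, where 4456 of all genes passed, and for the type 2 response also without DMSO 1 (3). The difference of Ptgs1, −0.05, turned to 0.02 with median ratio scaling and 0.03 with quantile normalization, and ranged from −0.13 (without lenvatinib 1) to 0.03 (without DMSO 1) with each library left out; the cause was not tested. Depth limits the lenvatinib levels, which rest on 8 to 42 reads over the 10 genes.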

Other observations

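Genes of the type 2 mucosal response, in which mucosal mast cells expand, did not pass in limma (0 of 8 tested, 2 at an unadjusted p under 0.05 where 22.0% of all tested genes had one, median −0.21), but DMSO 1 stood apart in several of them. Clca1, a secreted goblet cell protein, measured 1973 FPKM in DMSO 1, 329 and 334 FPKM in DMSO 2 and 3, and 52.3 to 62.4 FPKM with lenvatinib (limma adjusted p = 0.0791). Retnlb, a goblet cell protein, measured 2126, 555 and 591 FPKM with DMSO and 373 to 404 FPKM with lenvatinib (limma adjusted p = 0.241). Il13, a type 2 cytokine, measured 0.546 FPKM in DMSO 1, was listed at 0 in DMSO 2 and 3, and reached 0.0217 FPKM with lenvatinib. The eosinophil receptor genes Siglecf and Ccr3 were also highest in DMSO 1, at 1.86 and 1.2 FPKM, against 0.669 and 0.383 FPKM in DMSO 2. Of the 10 mast cell genes, Cma2, Mcpt9, Mcpt1, Tpsb2 and Ms4a2 were also highest in DMSO 1 (Mcpt1 at 162 FPKM against 140.0 and 140.2 FPKM), whereas Mcpt2, at 53.4 FPKM against 55.5 and 56.2 FPKM, Mcpt4 and Cma1 were lowest there. Itln1, an intelectin of goblet and Paneth cells, measured 12.3 FPKM in DMSO 1, 0.673 and 0.578 FPKM in DMSO 2 and 3, and 17.1 ± 1.97 FPKM (SD, n = 3) with lenvatinib (limma adjusted p = 0.172). Without DMSO 1, 3 genes of this list passed, against 267 (2.27%) of all genes, and without lenvatinib 1, 3 passed, against 4456 (38.0%). These values of DMSO 1 were singled out after they were seen, and come from 1 library, the only library with the male pattern of Ddx3y and Xist.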
